A study of Mus musculus with 16 samples.

Results

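Cytochrome P450 genes were examined across 4 groups of mouse lungs that differed in genotype and in exposure to an inhaled allergen. They were taken as all genes whose single annotated symbol consists of Cyp, a family number, a subfamily letter or letters and a member number, as in Cyp2f2, and they numbered 82 of the 19938 genes with 1 symbol on the array. They belonged to 36 subfamilies, of which 26 had 1 member here. The form leaves out Cyp51, which has no letter, and members whose number ends in a further letter. A further 7 probe sets annotated to several genes, at least 1 of them a P450, were not used. Of 93 protein-coding genes with symbols of this form in the RefSeq table, 81 were among the 82. Each of the 82 was read by 1 probe set. Of the 82, 32 had a mean level over the 16 arrays at or above the 25th percentile of all genes and 16 at or above the median, and 50 lay below the 25th percentile.

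P450 enzymes are heme-containing oxygenases, most of them bound to the endoplasmic reticulum, that receive electrons from a reductase and insert oxygen into lipids, steroids, drugs and inhaled chemicals. Members of a subfamily are close in sequence and often lie side by side in the genome. In mouse lung several of them are abundant in club cells, the secretory cells of the small airways, where Cyp2f2 converts naphthalene to a toxic epoxide. Other members make or clear signalling lipids such as epoxides of arachidonic acid, leukotriene B4 and oxysterols.

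RNA of whole lung was hybridised to 16 Affymetrix whole-transcript arrays, 4 for each group. Wild-type mice (WT) of strain B6129SF2/J formed a saline group and a group challenged with house dust mite (HDM), and Vldlr-/- mice (KO) formed the same pair of groups. Vldlr encodes the very low density lipoprotein receptor. All mice were dosed through the nose in a volume of 10 µl on 5 days of each week for 6 weeks, and a dose of HDM held 25 µg. The sources used here do not give the strain of the KO mice, ages, the design of the allele or the number of animals behind an RNA sample. P-values therefore measure the spread between these samples. The deposited values are in log2 units, which all levels and differences keep, and 4 values in a row are replicates 1 to 4 of a group. Levels of different genes come from different probes and cannot be ranked against each other. A gene passed at a Benjamini-Hochberg adjusted p under 0.05 over all 19938 genes (limma, 4 group means, 12 residual degrees of freedom).

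Vldlr lay between 10.27 and 10.92 on the 8 WT arrays and between 9.40 and 9.91 on the 8 KO arrays, which did not overlap. Its difference between genotypes was -0.76 under saline (SE 0.12, limma adjusted p = 0.00697) and -0.93 after challenge (SE 0.12, adjusted p = 0.000277). The mean level of 8 alveolar type 2 cell markers, among them the surfactant gene Sftpc, was between 12.83 and 13.17 on all arrays, and that of 7 liver markers between 7.50 and 7.82. Earlier results of these data set WT saline 2, WT saline 3 and KO HDM 4 apart from their groups, so values without these arrays are given where they end a call or move a count.

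On all 4 KO HDM arrays 6 members lay below all 12 other arrays, namely Cyp2e1, Cyp2f2, Cyp2j9, Cyp2s1, Cyp39a1 and Cyp4f15. Of all genes, 0.823% did so (164 genes). Only Cyp4f18 and Cyp7b1 lay above all 12 other arrays, as did 1.05% of all genes. In the comparison of KO with WT under HDM, 14 of 82 members passed, 3 higher and 11 lower, where 11.7% of all genes passed, 5.84% higher and 5.83% lower. In the comparison of HDM with saline within KO mice 12 members passed, 3 higher and 9 lower, against 8.84% of all genes, 4.96% higher and 3.88% lower. Within WT mice HDM changed 10 members, 4 higher and 6 lower, against 17.6% of all genes (7.86% higher, 9.72% lower). In unchallenged lungs 0 members differed between genotypes by limma, where 0.231% of all genes did (0.0903% higher, 0.14% lower). At an unadjusted p under 0.05 the last comparison held 6 members (7.32%), against 7.81% of all genes. The comparisons share groups. The KO HDM arrays enter both that of KO with WT under HDM and that of HDM with saline in KO mice, and 9 members passed in both. Counts of members whose 4 arrays all lay above or all below those of the compared group were 5 higher and 5 lower with HDM in WT mice (9.13% and 14.4% of all genes), 3 and 10 in KO mice (6.71% and 7.33%), 1 and 2 between genotypes under saline (3.16% and 3.38%) and 3 and 9 under HDM (5.74% and 5.06%).

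The median change over the 82 members, 50 of them below the 25th percentile of level, was close to that over all genes in each comparison. It was -0.061 with HDM in WT mice (-0.051 over all genes), -0.045 with HDM in KO mice (-0.028), and 0.0090 between genotypes under HDM (0.020). With only genes at or above the 25th percentile tested, 14 of 32 members passed between genotypes under HDM, against 2375 of 14953 genes. Of these 14, 3 were higher and 11 lower. With HDM, 13 of the 32 passed in KO mice and 8 in WT mice, against 1860 and 3155 of the 14953 genes. Of the 82 members, 23 passed in at least 1 comparison and 59 in none, and the same count over all genes was not made. Among those 59, differences between genotypes under HDM lay between -0.27 and 0.23, and HDM changes in KO mice between -0.30 and 0.19.

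**Figure D1:**
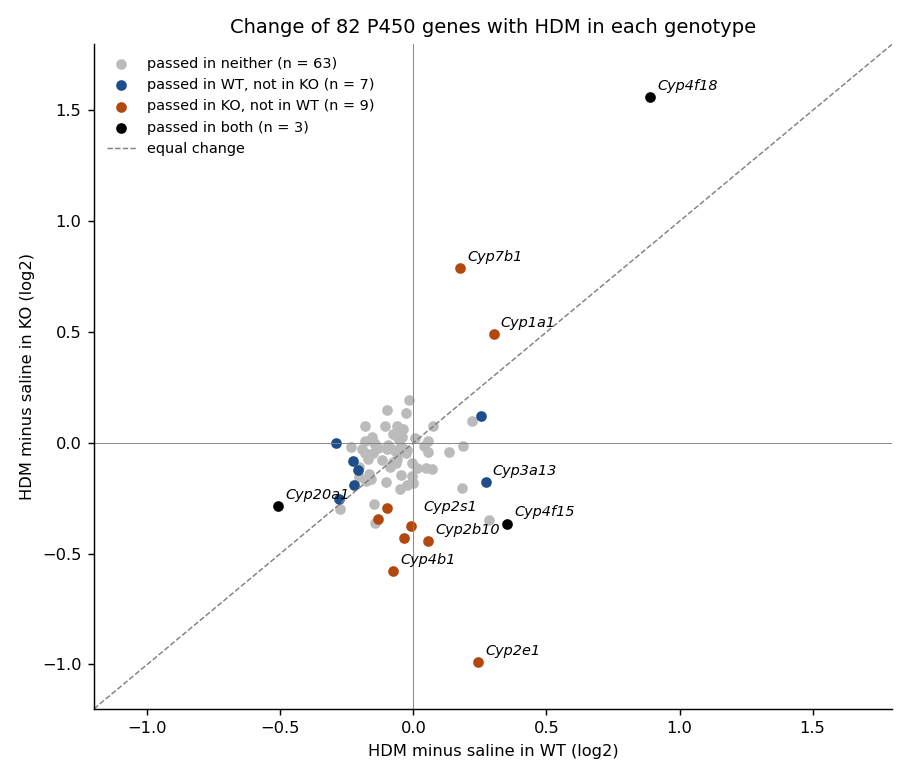
Change of each of the 82 P450 genes with HDM on the log2 scale, in WT mice on the horizontal axis and in KO mice on the vertical axis, with colours for the comparisons in which a gene passed. Cyp4f18 lies at the upper right, with changes of 0.89 and 1.56, Cyp2e1 lies lowest with 0.24 and -0.99, and Cyp4f15 passed in both genotypes with opposite signs.

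Cyp2e1, which oxidises ethanol, acetone and other small molecules, had the largest fall in challenged KO lungs among the 82 members. For Cyp2e1 the WT saline lungs read 9.73, 9.84, 10.13 and 9.77, and the WT HDM lungs read 9.97, 10.53, 9.88 and 10.05. In KO mice Cyp2e1 read 9.76, 9.86, 9.83 and 10.43 after saline and 8.82, 9.26, 8.75 and 9.08 after HDM. All KO HDM arrays lay below every other array, and KO saline 4 lay above the other KO saline arrays. With n = 4 in each group, it fell with HDM in KO mice by 0.99 (SE 0.16, limma adjusted p = 0.00082). After challenge it was 2.19-fold lower in KO than in WT mice (log2 difference -1.13, SE 0.16, adjusted p = 0.000649). In WT mice its change of 0.24 did not pass (adjusted p = 0.275). The change in KO mice minus that in WT mice, called the interaction, was -1.23 (SE 0.22, adjusted p = 0.0184). It passed without any single array, and with WT saline 2 and 3 both left out it was -1.35 and did not pass (limma adjusted p = 0.0697, the highest of its alternatives, the lowest being 0.00805).

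Cyp2f2, the naphthalene-oxidising enzyme of club cells, was also lowest on the KO HDM arrays, by less. For Cyp2f2 the WT saline lungs read 13.99, 14.03, 14.05 and 14.06, and the WT HDM lungs read 14.02, 14.12, 13.88 and 13.95. In KO mice Cyp2f2 read 14.01, 14.10, 13.99 and 14.01 after saline and 13.53, 13.44, 13.55 and 13.87 after HDM. The other 3 groups overlapped, and KO HDM 4 lay closest to them, just below WT HDM 3. With HDM it fell by 0.43 in KO mice (SE 0.076, limma adjusted p = 0.00191) and differed between genotypes under HDM by -0.40 (SE 0.076, adjusted p = 0.00463). In WT mice the change was -0.037 (adjusted p = 0.753). The interaction of -0.39 (SE 0.11, adjusted p = 0.0914) did not pass, and without KO HDM 4 it was -0.48 and passed (adjusted p = 0.00506, with alternatives up to 0.258). In whole lung, fewer club cells and less RNA per club cell cannot be told apart.

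The CYP2B subfamily holds inducible drug-oxidising enzymes, and 5 members were measured. Cyp2b10 is the classical target of the nuclear receptor CAR (Nr1i3). For Cyp2b10 the KO saline lungs read 13.56, 13.66, 13.65 and 13.63, and the KO HDM lungs read 13.20, 12.93, 13.19 and 13.43, without overlap. The WT HDM arrays were at 13.48, 13.72, 13.35 and 13.64, and the lowest of them lay below KO HDM 4. It fell by 0.44 with HDM in KO mice (SE 0.091, limma adjusted p = 0.00537), and its genotype difference under HDM was -0.36 (adjusted p = 0.0181). The latter did not pass without WT HDM 2 or 4, or KO HDM 2 (limma adjusted p = 0.0538 to 0.0642). Cyp2b9 fell by 0.37 in KO mice (adjusted p = 0.0154) and differed by -0.29 between genotypes under HDM (adjusted p = 0.0465). The fall did not pass without KO saline 1 or 2, or KO HDM 2 (limma adjusted p = 0.0513 to 0.059), and the difference did not pass without WT HDM 1, 2 or 4, or KO HDM 1, 2 or 3 (limma adjusted p = 0.0559 to 0.149). For Cyp2b13, Cyp2b19 and Cyp2b23 the values in KO mice were -0.28, -0.21 and -0.12, which did not pass. The CYP2B genes are close paralogs, and whether a probe set of one also reads another was not tested, so the values of Cyp2b9 and Cyp2b10 may not be independent.

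Cyp2s1, an epithelial P450 outside the liver, differed between the challenged genotypes. For Cyp2s1 the WT saline lungs read 11.62, 11.64, 11.67 and 11.61, and the WT HDM lungs read 11.89, 12.29, 11.68 and 11.79, which were all higher. In KO mice Cyp2s1 read 11.68, 11.70, 11.72 and 11.76 after saline and 11.10, 11.21, 11.56 and 11.59 after HDM, which were all lower. The difference between genotypes under HDM was -0.55 (SE 0.11, limma adjusted p = 0.00717). Neither change with HDM passed (0.28 in WT, adjusted p = 0.0914; -0.35 in KO, adjusted p = 0.0666), nor did the interaction of -0.63 (adjusted p = 0.0728). In unchallenged lungs the groups did not overlap either, with a difference of 0.083 (adjusted p = 0.946), as in 3.16% of all genes with the KO arrays higher.

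Among 9 CYP2D genes, relatives of the human drug-metabolising enzyme of that name, 1 passed, between genotypes under HDM, where 11.7% of all genes passed. For Cyp2d22 the WT HDM lungs read 11.86, 11.81, 11.42 and 11.52, and the KO HDM lungs read 11.19, 11.04, 11.12 and 11.58, which overlapped through KO HDM 4. Its difference under HDM was -0.42 (SE 0.11, limma adjusted p = 0.0259) and did not pass without WT HDM 1 or 2, or KO HDM 1, 2 or 3 (limma adjusted p = 0.0687 to 0.0838). The other 8 CYP2D genes differed under HDM by -0.22 to 0.11 and did not pass. Of 6 CYP2J genes, whose enzymes make epoxides of arachidonic acid, 1 passed with HDM in KO mice and between genotypes under HDM. The shares of all genes were 8.84% and 11.7%. The member that passed was Cyp2j9. It fell by 0.29 with HDM in KO mice (adjusted p = 0.0351), from 8.99 ± 0.18 to 8.70 ± 0.08 (SD), and differed by -0.31 between genotypes under HDM (adjusted p = 0.0233). The fall did not pass after quantile normalization (limma adjusted p = 0.0529) or without KO saline 2, 3 or 4, or KO HDM 1, 2 or 3 (limma adjusted p = 0.055 to 0.106), nor the difference without WT HDM 2, or KO HDM 1, 2 or 3 (limma adjusted p = 0.0502 to 0.0834). None of 13 CYP2C genes, a subfamily of liver epoxygenases and hydroxylases, passed in any comparison. At an unadjusted p under 0.05, 1 of them changed with HDM in each genotype and 2 differed between genotypes under HDM. The shares of all genes at that level were 35.2% in WT mice, 22.7% in KO mice and 26.5% between genotypes under HDM.

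**Figure D2:**
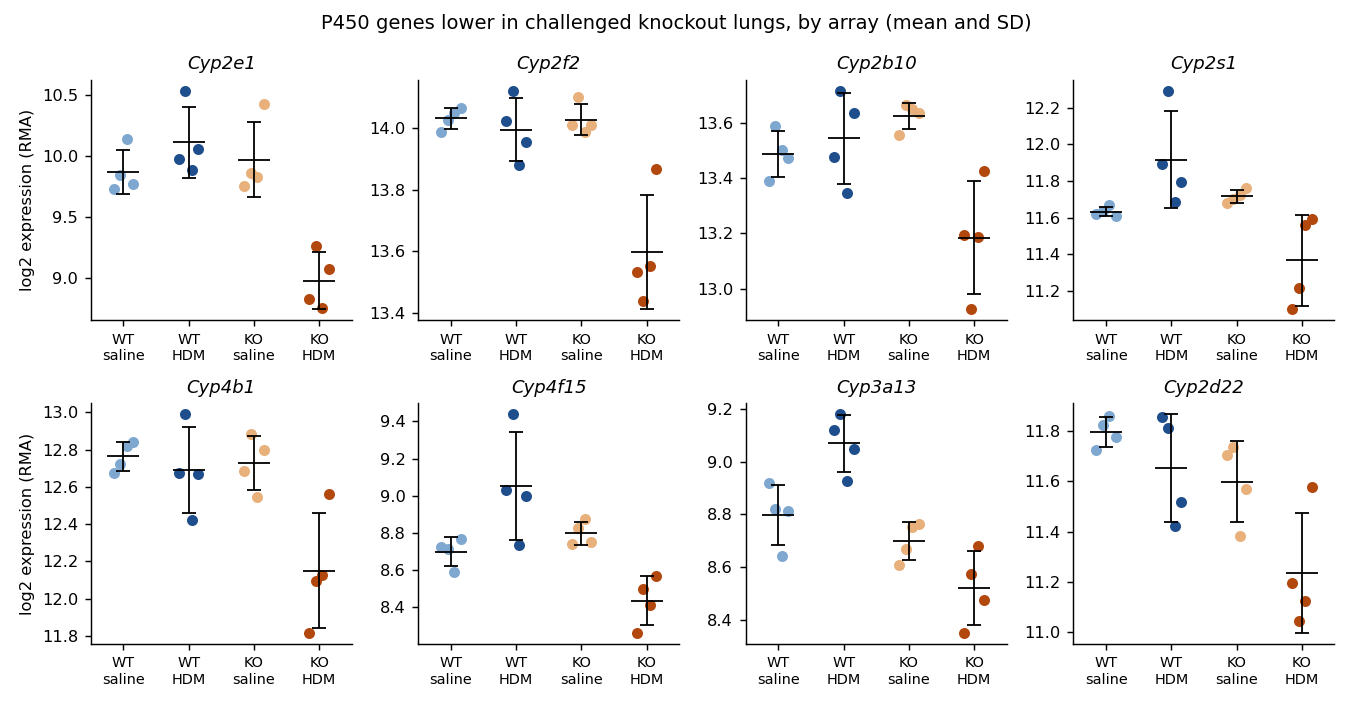
Log2 expression of 8 P450 genes on each array (points), with the mean and SD of each group of 4 (bars), on axes that do not start at 0. The KO HDM arrays have the lowest group mean in every panel, without overlap with any other group for Cyp2e1, Cyp2f2, Cyp2s1 and Cyp4f15, and KO HDM 4 is the highest of its group in all panels but those of Cyp2e1 and Cyp3a13.

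Of 6 CYP3A genes, which encode broad drug and steroid oxidases, Cyp3a13 and Cyp3a25 passed in at least 1 comparison. With HDM in WT mice 1 was higher and 1 lower, where 17.6% of all genes passed. Between genotypes under HDM 1 passed, where 11.7% of all genes did. For Cyp3a13 the WT saline lungs read 8.92, 8.82, 8.64 and 8.81, and the WT HDM lungs read 9.12, 9.18, 8.93 and 9.05, which were all higher. In KO mice Cyp3a13 read 8.61, 8.67, 8.75 and 8.76 after saline and 8.35, 8.57, 8.68 and 8.48 after HDM, which overlapped. It rose by 0.27 with HDM in WT mice (SE 0.077, limma adjusted p = 0.0248), a change that did not pass without WT saline 3, or WT HDM 2 (limma adjusted p = 0.0708 to 0.0791). In KO mice the change was -0.18 (adjusted p = 0.173). Between genotypes under HDM it differed by -0.55 (SE 0.077, adjusted p = 0.000654), and the interaction of -0.45 did not pass (adjusted p = 0.0592). Cyp3a25 fell by 0.29 in WT mice (adjusted p = 0.0248), not so without WT saline 1 or 3, or WT HDM 2 (limma adjusted p = 0.0686 to 0.0808). Its mean level of 6.92 lay below the 25th percentile of all genes (8.05). Between genotypes under HDM, Cyp3a11, Cyp3a16, Cyp3a44 and Cyp3a57 lay between -0.08 and 0.12, and Cyp3a25, at 0.21 (adjusted p = 0.107), was the highest of the subfamily. None of these 5 passed.

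The CYP1 genes are targets of the aryl hydrocarbon receptor and oxidise polycyclic hydrocarbons. For Cyp1a1 the KO saline lungs read 8.48, 8.85, 8.73 and 8.76, and the KO HDM lungs read 8.99, 9.05, 9.11 and 9.64, which were all higher. It rose by 0.49 (SE 0.13, limma adjusted p = 0.0262), not so without KO saline 1 (limma adjusted p = 0.0891). In WT mice the change was 0.30 (adjusted p = 0.113), and the interaction of 0.19 did not pass (adjusted p = 0.66). For Cyp1b1 the WT HDM lungs read 9.17, 9.35, 9.14 and 9.16, and the KO HDM lungs read 9.41, 9.44, 9.60 and 9.38. It was higher in KO than in WT mice by 0.25 under HDM (SE 0.072, adjusted p = 0.0316), not so without WT HDM 1, 3 or 4, or KO HDM 1, 2 or 3 (limma adjusted p = 0.0611 to 0.11). Under saline the difference was 0.26 (adjusted p = 0.198), and Cyp1b1 had the smallest p of all members there. Cyp1a2, a liver enzyme, did not pass in any comparison.

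The CYP4 family hydroxylates the far end of fatty acids and eicosanoids, and 4 of its 13 members passed in at least 1 comparison. With HDM, 3 rose in WT mice (7.86% of all genes), and 1 rose and 2 fell in KO mice (4.96% and 3.88%). Between genotypes under HDM, 1 was higher and 2 were lower (5.84% and 5.83% of all genes). Cyp4b1, abundant in lung and known to activate the lung toxin ipomeanol, was at 12.69, 12.88, 12.54 and 12.80 on KO saline arrays 1 to 4. On the KO HDM arrays it was at 11.82, 12.09, 12.13 and 12.56, and KO HDM 4 lay within the range of the KO saline arrays. It fell by 0.58 with HDM in KO mice (SE 0.13, limma adjusted p = 0.00945). The WT HDM arrays were at 12.67, 12.99, 12.43 and 12.67, and the genotype difference under HDM was -0.54 (SE 0.13, adjusted p = 0.0149). That difference did not pass without WT HDM 2, or KO HDM 1 (limma adjusted p = 0.0515 to 0.0578). In WT mice its change was -0.075 (adjusted p = 0.702).

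Cyp4f15 passed with HDM in both genotypes and in opposite directions. For Cyp4f15 the WT saline lungs read 8.72, 8.71, 8.59 and 8.77, and the WT HDM lungs read 9.029, 9.438, 8.732 and 8.998. In KO mice Cyp4f15 read 8.74, 8.82, 8.87 and 8.75 after saline and 8.26, 8.50, 8.41 and 8.57 after HDM, below every other array. WT HDM 3 lay within the range of the WT saline arrays. It rose by 0.35 in WT mice (SE 0.11, limma adjusted p = 0.0324) and fell by 0.36 in KO mice (SE 0.11, adjusted p = 0.0405). The rise did not pass without WT saline 1, 2 or 3, or WT HDM 2 or 4 (limma adjusted p = 0.0559 to 0.0855) and was 0.22 without WT HDM 2. With only the WT groups in the fit it did not pass either (limma adjusted p = 0.0732). The fall did not pass without KO saline 1, 2, 3 or 4, or KO HDM 1, 2 or 3 (limma adjusted p = 0.0654 to 0.125). Between genotypes under HDM the difference of -0.62 (SE 0.11, adjusted p = 0.00264) passed without any single array. The interaction was -0.72 (SE 0.15, adjusted p = 0.0367) and did not pass without WT saline 1, 2, 3 or 4, WT HDM 4, KO saline 1, 2, 3 or 4, or KO HDM 1, 2 or 3 (limma adjusted p = 0.0515 to 0.0807).

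Cyp4f18, the leukotriene B4 hydroxylase of neutrophils and other myeloid cells, rose most of all members. For Cyp4f18 the WT saline lungs read 9.07, 9.70, 9.66 and 9.16, and the WT HDM lungs read 10.54, 10.22, 10.60 and 9.78, which were all higher. In KO mice Cyp4f18 read 9.61, 9.48, 9.84 and 9.77 after saline and 11.39, 11.27, 11.52 and 10.75 after HDM, above every other array. The rise was 1.85-fold in WT mice (log2 change 0.89, SE 0.19, limma adjusted p = 0.00524) and 2.95-fold in KO mice (1.56, SE 0.19, adjusted p = 6.51e-05). Under HDM it was higher in KO mice by 0.95 (SE 0.19, adjusted p = 0.00552). The interaction of 0.67 did not pass (adjusted p = 0.223). With HDM in KO mice 4.96% of all genes rose and 3.88% fell. Of 5 neutrophil markers, 0 rose and 2 fell with HDM in KO mice, with S100a8, a calcium-binding protein of neutrophils, at -0.36. Of 6 interstitial macrophage and monocyte markers, 4 rose and 1, the chemokine receptor gene Cx3cr1, fell, with Ms4a7 up by 1.35, and of 5 eosinophil markers 4 rose, with the arachidonate lipoxygenase Alox15 up by 2.91. The mean level of the macrophage and monocyte markers was 9.73 to 9.99 on KO saline arrays and 10.15 to 10.67 on KO HDM arrays, and that of the eosinophil markers 7.97 to 8.16 and 9.29 to 9.87. Their part in the rise of Cyp4f18 was not tested.

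Cyp4f16 rose by 0.25 with HDM in WT mice (SE 0.074, limma adjusted p = 0.0293), from 9.40 ± 0.09 to 9.65 ± 0.13 (SD). The WT HDM arrays were all higher. It did not pass without WT saline 2, 3 or 4, or WT HDM 2 or 4 (limma adjusted p = 0.0523 to 0.0933), and in KO mice the change was 0.12 (adjusted p = 0.346). The other 5 CYP4F genes, Cyp4f13, Cyp4f14, Cyp4f37, Cyp4f39 and Cyp4f40, did not pass in any comparison. Nor did Cyp4x1 or the 3 CYP4A genes, which in liver are targets of the fatty acid receptor Ppara. With HDM in KO mice the CYP4F median was 0.078, with Cyp4f18 and Cyp4f15 at its ends.

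**Figure D3:**
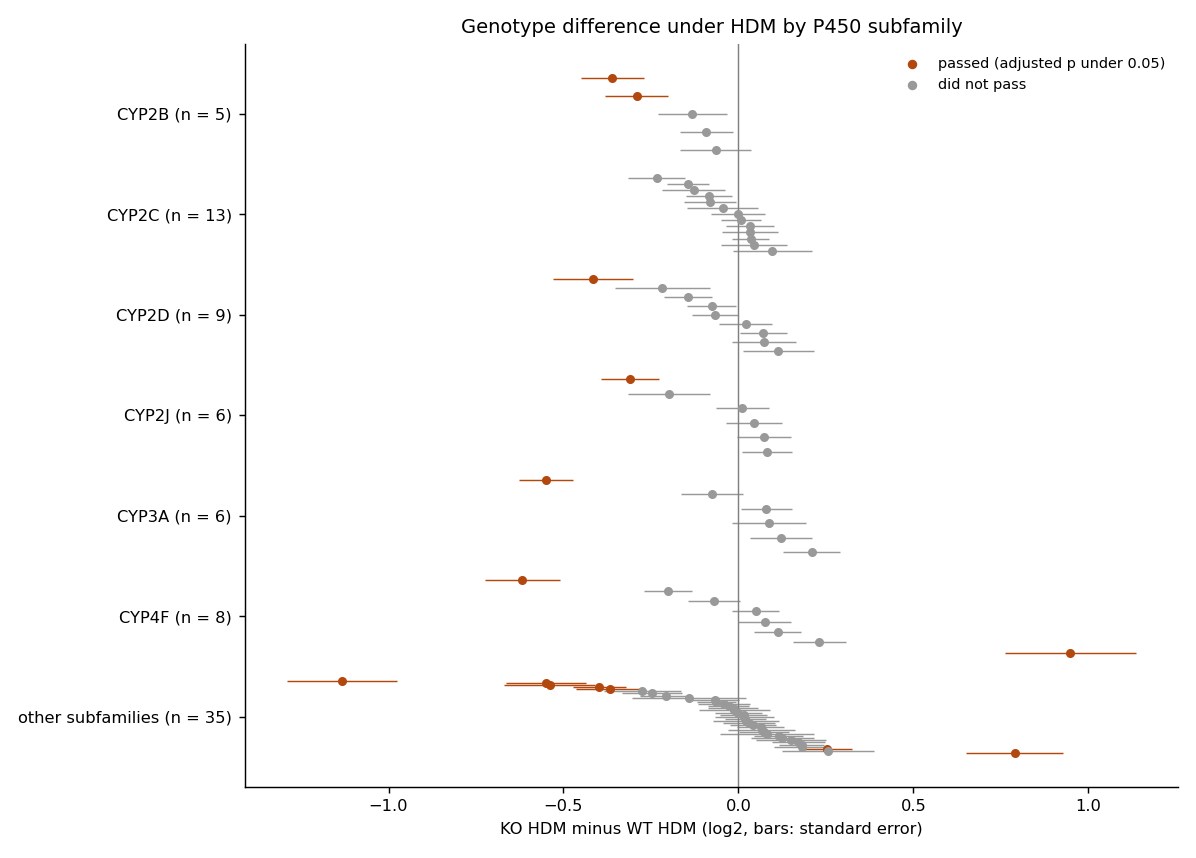
Difference between KO and WT mice under HDM for the 82 P450 genes (log2, points) with limma's standard error (bars), by subfamily for those with at least 5 members and together for the rest, in order of size within each. Most members of each subfamily lie near 0, with 1 or 2 of them apart in CYP2B, CYP2D, CYP2J, CYP3A and CYP4F and none past the threshold in CYP2C.

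The sterol-oxidising P450 genes changed in both directions. Cyp7b1, which adds a hydroxyl group to oxysterols and acts on the precursor of an attractant of lymphocytes and dendritic cells, rose in challenged KO lungs. For Cyp7b1 the WT saline lungs read 9.47, 9.60, 9.26 and 9.21, and the WT HDM lungs read 9.72, 9.45, 9.67 and 9.40. In KO mice Cyp7b1 read 9.60, 9.41, 9.77 and 9.45 after saline and 10.27, 10.41, 10.77 and 9.94 after HDM, above all others. The rise in KO mice was 1.73-fold (0.79, SE 0.14, limma adjusted p = 0.00187), and under HDM the gene was higher in KO mice by 0.79 (SE 0.14, adjusted p = 0.0029). In WT mice the change of 0.17 did not pass (adjusted p = 0.376), nor did the interaction of 0.61 (adjusted p = 0.138).

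Cyp39a1, which acts on 24-hydroxycholesterol, moved the other way. For Cyp39a1 the KO saline lungs read 11.67, 11.70, 11.86 and 11.74, and the KO HDM lungs read 11.49, 11.37, 11.30 and 11.44, below every other array. It fell by 0.34 (SE 0.074, limma adjusted p = 0.00742), and its genotype difference under HDM of -0.21 did not pass (adjusted p = 0.0758). Cyp27a1, the mitochondrial sterol 27-hydroxylase, was lower in KO than in WT mice under HDM by a difference of -0.37 (SE 0.097, adjusted p = 0.0222). Its WT HDM arrays were at 10.45, 10.29, 10.12 and 10.38 and its KO HDM arrays at 10.08, 9.68, 9.79 and 10.23, which overlapped. It did not pass without WT HDM 1 or 4, or KO HDM 2 or 3 (limma adjusted p = 0.057 to 0.0804). Cyp46a1, the cholesterol 24-hydroxylase of neurons, fell by 0.23 in WT mice (adjusted p = 0.0283) and not without WT saline 1, 3 or 4, or WT HDM 2 or 4 (limma adjusted p = 0.0579 to 0.0808). Cyp7a1 and Cyp8b1, bile acid enzymes of the liver, did not pass in any comparison.

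Cyp20a1, a P450 without a settled substrate, fell in both genotypes. For Cyp20a1 the WT saline lungs read 10.75, 10.47, 10.64 and 10.72, and the WT HDM lungs read 10.31, 10.20, 10.02 and 10.01, which were all lower. In KO mice Cyp20a1 read 10.49, 10.67, 10.66 and 10.58 after saline and 10.42, 10.20, 10.41 and 10.24 after HDM, again all lower. The fall was 0.51 in WT mice (SE 0.08, limma adjusted p = 0.000858) and 0.28 in KO mice (SE 0.08, adjusted p = 0.0336), the log2 changes being -0.51 and -0.28. In KO mice it did not pass without KO saline 2, 3 or 4, or KO HDM 2 or 4 (limma adjusted p = 0.0596 to 0.107). The interaction was 0.22 (adjusted p = 0.352).

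**Figure D4:**
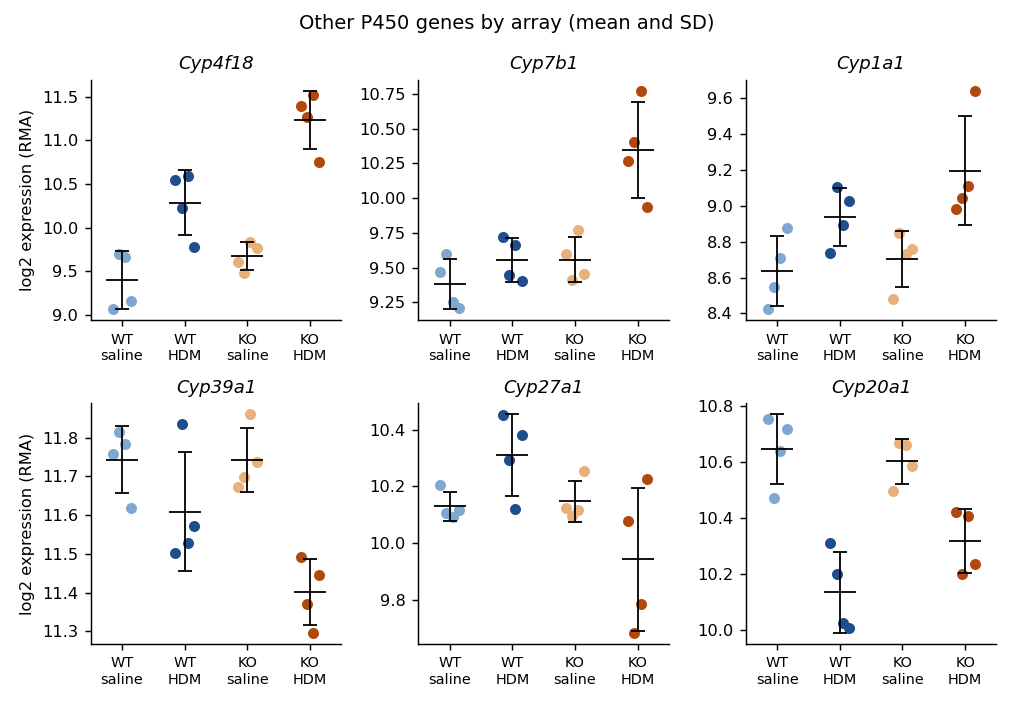
Log2 expression of 6 further P450 genes on each array (points), with the mean and SD of each group of 4 (bars), on axes that do not start at 0. Cyp4f18 and Cyp7b1 are highest on the KO HDM arrays without overlap, Cyp39a1 is lowest there, and Cyp20a1 is lower on the HDM arrays of both genotypes.

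The remaining falls in WT mice were small. Cyp2a22 (change -0.28, limma adjusted p = 0.034), Cyp17a1, the steroid 17-hydroxylase (-0.21, adjusted p = 0.046), and Cyp2w1 (-0.22, adjusted p = 0.0484) fell. Of these 3, Cyp2a22 and Cyp17a1 had mean levels of 5.39 and 7.56, below the 25th percentile of all genes (8.05). After quantile normalization of the arrays none of these 3 passed, nor did Cyp3a25 (-0.19, limma adjusted p = 0.0812), Cyp46a1 (-0.14, adjusted p = 0.0988) or Cyp4f16 (0.23, adjusted p = 0.0549), so that 4 members passed in WT mice, 3 higher and 1 lower, in place of 4 and 6. Cyp2a22 did not pass without WT saline 1, 2, 3 or 4, or WT HDM 2, 3 or 4 (limma adjusted p = 0.05 to 0.0898). Cyp17a1 did not pass without WT saline 1, 2, 3 or 4, or WT HDM 1, 2 or 4 (limma adjusted p = 0.0539 to 0.117). Cyp2w1 did not pass without WT saline 1, 2 or 4, or WT HDM 1, 2 or 4 (limma adjusted p = 0.0563 to 0.146). The other 4 steroid hormone genes, Cyp11a1, Cyp11b1, Cyp11b2 and Cyp21a1, the vitamin D enzymes Cyp2r1 and Cyp27b1, and the retinoic acid hydroxylases Cyp26a1, Cyp26b1 and Cyp26c1 did not pass in any comparison. Markers of adrenal gland and gonad were at a mean of 7.68 to 7.83 on WT saline arrays and 7.56 to 7.76 on WT HDM arrays.

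The count in WT mice depended on single arrays. Leaving out WT saline 1 gave 4 members, WT saline 2 gave 5, WT saline 3 gave 4, WT HDM 2 gave 3 and WT HDM 4 gave 6. With WT saline 2 and 3 left out together, it was 2, and these were Cyp4f18 and Cyp20a1. Under HDM between genotypes the count was 9 without WT HDM 2, 8 without KO HDM 2 and 9 without KO HDM 3. It was 5 when only the 2 groups compared entered the fit, which has fewer residual degrees of freedom. The 5 were Cyp2e1, Cyp3a13, Cyp4f15, Cyp4f18 and Cyp7b1, while Cyp2f2 (limma adjusted p = 0.0554), Cyp2s1 (0.0705) and Cyp4b1 (0.0831) were among those that did not pass. In KO mice no single array moved the count of 12 by over 1.5 times, and it was 15 without KO HDM 4.

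Without allergen no P450 gene passed between genotypes. The smallest p-values belonged to Cyp1b1, Cyp2a22 and Cyp2c37. For Cyp2a22 the WT saline lungs read 5.61, 5.75, 5.67 and 5.63, and the KO saline lungs read 5.65, 5.35, 5.17 and 5.39 (difference -0.28, limma adjusted p = 0.285). Cyp2c37 was at 8.45, 8.55, 8.37 and 8.32 and 8.20, 8.32, 8.15 and 8.18 (difference -0.21, adjusted p = 0.454). For Cyp2c37 all KO arrays were lower, as for 3.38% of all genes. Cyp2e1 and Cyp2f2 differed by 0.099 and -0.0048.

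The interaction asked whether the HDM response of a gene depended on genotype. It passed for Cyp2e1 and Cyp4f15 of the 82 members, both lower, against 0.802% of all genes (0.446% lower). Over all genes 160 passed. The P450 count was 10 without KO HDM 4, 9 of them lower, where 1019 of all genes passed, 512 of them higher. It was 5 without WT HDM 3, where 325 of all genes passed, and 1 when any of 11 other arrays was left out. Without WT saline 2 and 3 together limma called 0 members and 12 genes in all. Array weights gave 7.

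**Figure D5:**
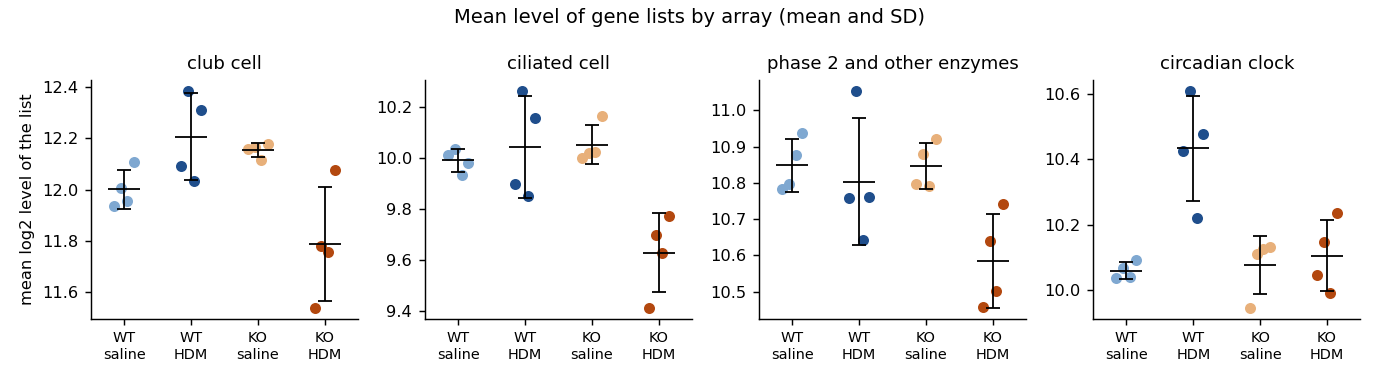
Mean log2 level of 4 gene lists on each array (points), with the mean and SD of each group of 4 (bars), on axes that do not start at 0. The club cell list spans 12.11 to 12.18 on KO saline and 11.54 to 12.08 on KO HDM arrays, with KO HDM 4 the highest of its group, and the clock list has its highest mean on WT HDM arrays.

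As lists, club and ciliated cell markers also had lower mean levels on the KO HDM than on the KO saline arrays. On KO HDM 4 the club cell list, at 12.08, lay within the ranges of both WT groups, unlike Cyp2e1 and Cyp2f2. Of 8 club cell markers without P450 genes, 5 fell and 0 rose with HDM in KO mice (median -0.32), and 6 were lower in KO than in WT mice under HDM (median -0.36). For these and the marker counts below, the shares of all genes were 3.88% lower and 4.96% higher with HDM in KO mice. Between genotypes under HDM they were 5.83% lower and 5.84% higher. For Scgb3a2 the KO saline lungs read 9.98, 10.21, 10.17 and 10.20, and the KO HDM lungs read 8.92, 9.19, 8.75 and 9.51, a fall of 1.05 (SE 0.14, limma adjusted p = 0.000167). Scgb1a1, the main secretory protein of club cells, differed by -0.94 between genotypes under HDM (adjusted p = 0.0153). The mean level of the list was 11.94 to 12.11 on WT saline, 12.03 to 12.39 on WT HDM, 12.11 to 12.18 on KO saline and 11.54 to 12.08 on KO HDM arrays. Of 8 ciliated cell markers 5 fell with HDM in KO mice, among them Tppp3 at -0.73, and the list was at 10.00 to 10.16 on KO saline and 9.41 to 9.77 on KO HDM arrays. Alveolar type 2 markers fell with HDM in KO mice in 1 of 8 cases, alveolar type 1 markers in 4 of 7. Under HDM, 3 of 8 ciliated, 3 of 8 alveolar type 2 and 3 of 7 alveolar type 1 markers were lower in KO than in WT mice. So were 4 of 7 endothelial and 3 of 5 cardiac markers, and none on these lists was higher. The cardiac markers were also lower in KO mice under saline (median -0.50). None of the 5 passed there, and all 5 had an unadjusted limma p under 0.05. Under HDM, 3 of 6 fibroblast markers were higher and 1 lower in KO than in WT mice, and of 5 smooth muscle markers 1 was higher and 0 lower. The part of cell numbers in the P450 changes was not tested.

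Circadian clock genes also differed between groups, in another pattern, and several drug-metabolising genes are known to follow the clock in other organs. The mean level of the clock list was highest on WT HDM arrays, at 10.22 to 10.61. On KO HDM arrays it was 9.99 to 10.24, which overlapped KO saline (9.95 to 10.13) and WT saline (10.04 to 10.09). Of 14 clock genes measured, 7 rose and 1 fell with HDM in WT mice (7.86% and 9.72% of all genes), and 1 rose in KO mice (4.96%). In KO compared with WT mice under HDM, 1 was higher and 7 were lower (5.84% and 5.83% of all genes). The clock output gene Dbp differed by -1.17 between genotypes under HDM (SE 0.13, limma adjusted p = 0.000126) and rose by 1.37 with HDM in WT mice (adjusted p = 3.54e-05). In KO mice its change was 0.099 (adjusted p = 0.703). The sources used here do not give the time of day at which tissue was taken, and the part of the clock in the P450 differences was not tested.

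Other enzymes of the detoxification system were also lower in challenged KO lungs. Of 28 genes of conjugating and other drug-metabolising enzymes, 10 fell and 0 rose with HDM in KO mice (median -0.24), against 3 and 1 in WT mice. Over all genes 3.88% fell and 4.96% rose in KO mice, and 9.72% and 7.86% in WT mice. Sult1d1, a sulfotransferase, changed by -1.35 (SE 0.27, limma adjusted p = 0.00435). Gsta3, a glutathione transferase, fell by 0.93 (SE 0.16, adjusted p = 0.00144), and Ephx1, the epoxide hydrolase that acts next to P450 enzymes on naphthalene, by a change of -0.54 (adjusted p = 0.00536). Between genotypes under HDM, 7 of the 28 were lower and 1 higher, against 5.83% and 5.84% of all genes. None of the 28 passed in the interaction by limma (10 at an unadjusted p under 0.05).

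Of 7 redox partners of P450 enzymes, 1 rose with HDM in WT mice, 1 fell in KO mice and 1 was lower in KO than in WT mice under HDM, where 17.6%, 8.84% and 11.7% of all genes passed. Pgrmc1, a heme-binding partner, fell by 0.38 with HDM in KO mice (SE 0.09, limma adjusted p = 0.0144) and Cyb5r3, a cytochrome b5 reductase, was lower under HDM in KO than in WT mice by a difference of -0.49 (adjusted p = 0.00712). Fdx1, the electron donor of mitochondrial P450 enzymes, rose by 0.28 in WT mice (adjusted p = 0.035). Of 15 nuclear receptors of drugs and lipids, 3 rose and 1 fell in WT mice, 2 rose and 1 fell in KO mice, and 2 were lower in KO than in WT mice under HDM. Over all genes 7.86% rose and 9.72% fell in WT mice and 4.96% and 3.88% in KO mice. Between genotypes under HDM 5.83% of all genes were lower. Among the receptors Nr1i2, the drug sensor PXR, fell by 0.19 in KO mice (limma adjusted p = 0.0444). The value of Nr1i3 was -0.022 (adjusted p = 0.871), and the vitamin D receptor Vdr rose by 0.69 in WT and 0.55 in KO mice. Of 11 genes of the aryl hydrocarbon receptor and Nrf2 pathways, 0 rose and 1 fell with HDM in KO mice, the latter being Aldh3a1 (-0.39). Ahr itself did not pass (0.22, adjusted p = 0.0664). P450 enzymes with other symbols included Tbxas1, thromboxane synthase of platelets and macrophages, which rose by 0.76 in WT and 0.75 in KO mice. Ptgis, prostacyclin synthase, rose by 0.38 in WT mice (adjusted p = 0.0237), and its difference under HDM between genotypes was -0.55 (adjusted p = 0.00492).

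In the RefSeq gene order, Cyp2s1, Cyp2b10, Cyp2b13 and Cyp2b9 lie near each other on chromosome 7. Under HDM, 3 of these 4 were lower in KO than in WT mice, where 5.83% of all genes were lower and 11.7% passed. The values of Cyp2b9 and Cyp2b10 may not be independent. A second run on that chromosome holds Cyp2b23, Cyp2b19, Cyp2g1, Cyp2a22, Cyp2a12, Cyp2f2 and Cyp2t4, and 1 of its 7 members, Cyp2f2, was lower. On chromosome 19, none of 12 neighbouring CYP2C genes passed. On chromosome 5, none of 5 neighbouring CYP3A genes passed in that comparison, and Cyp3a13, which did, lies outside that run. Neighbours were members with at most 3 other protein-coding genes between them.

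The sequences just before the start of 8 members are shown because 7 of them had the largest differences between KO and WT mice under HDM among members with a promoter in the table, with Cyp2b10 added. They are from RefSeq (GRCm38.p6), 120 bases on the strand of the gene, 5′ to 3′, ending at the base before the annotated start. Capitals mark CCAAT, the motif of the factor NF-Y, and TATAAA, the TATA box, on either strand. On the opposite strand CCAAT reads ATTGG. These 2 motifs do not overlap in the windows.
Cyp2e1: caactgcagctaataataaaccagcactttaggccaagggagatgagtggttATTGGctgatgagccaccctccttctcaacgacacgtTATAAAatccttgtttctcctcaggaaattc
Cyp2f2: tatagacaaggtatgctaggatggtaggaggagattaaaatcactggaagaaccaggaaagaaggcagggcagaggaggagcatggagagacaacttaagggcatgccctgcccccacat
Cyp2b10: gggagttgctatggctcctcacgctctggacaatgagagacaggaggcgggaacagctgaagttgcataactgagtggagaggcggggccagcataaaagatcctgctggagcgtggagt
Cyp2s1: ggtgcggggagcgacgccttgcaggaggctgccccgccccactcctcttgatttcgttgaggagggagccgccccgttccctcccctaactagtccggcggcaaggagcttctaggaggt
Cyp3a13: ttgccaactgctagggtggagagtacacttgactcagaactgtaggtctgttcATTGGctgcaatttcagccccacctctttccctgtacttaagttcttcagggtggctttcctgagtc
Cyp4b1: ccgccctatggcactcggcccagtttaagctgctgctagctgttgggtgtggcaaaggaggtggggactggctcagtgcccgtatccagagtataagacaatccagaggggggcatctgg
Cyp4f15: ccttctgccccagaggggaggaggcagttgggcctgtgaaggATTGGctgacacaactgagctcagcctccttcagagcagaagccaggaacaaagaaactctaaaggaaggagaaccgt
Cyp4f18: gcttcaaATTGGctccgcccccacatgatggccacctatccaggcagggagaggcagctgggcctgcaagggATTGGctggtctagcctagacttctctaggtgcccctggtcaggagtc

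The windows lie at chr7:140763699-140763818 for Cyp2e1, chr7:27119835-27119954 for Cyp2f2 and chr7:25897538-25897657 for Cyp2b10, all on the plus strand, and at chr7:25816526-25816645 for Cyp2s1, on the minus strand. Cyp3a13 (chr5:137921620-137921739) and Cyp4b1 (chr4:115647722-115647841) are on the minus strand, Cyp4f15 (chr17:32685539-32685658) on the plus strand and Cyp4f18 (chr8:72009627-72009746) on the minus strand. Cyp2e1 had a reversed CCAAT 68 to 64 bases and a TATAAA 31 to 26 bases before its start. Cyp3a13 had a reversed CCAAT 67 to 63 bases before its start. Cyp4f15 held one at 78 to 74 bases, and Cyp4f18 at 113 to 109 and 48 to 44 bases. Cyp4f15 and Cyp4f18, which moved in opposite directions in KO mice, shared a run of 10 bases, ggattggctg, over such a motif. Cyp2f2, Cyp2b10, Cyp2s1 and Cyp4b1 had neither motif in these 120 bases, and nothing follows from that about the factors.

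Of the 82 members, 63 had promoter windows in the table, 71 in all, each read over the 250 bases before the start. CCAAT was found in 31 of them (43.7%, against 33.9% of all 32851 windows) and TATAAA in 23 (32.4% against 12.4%). GCGTG, the core of the aryl hydrocarbon receptor's site, was in 15 (21.1% against 28.2%), the GC box GGGCGG in 16 (22.5% against 32.7%), and TTATGNAA, a site of Dbp and its relatives, in 5 (7.04% against 3.07%). TGANTCA, the AP-1 site, was in 4 (5.63% against 6.75%). All were searched on both strands. Cyp1a1 had 1 GCGTG and Cyp2b10 had 2, and Cyp2b10 had 1 TTATGNAA. These matches are descriptions of sequence and not of binding.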

How the data were processed

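The deposited values are log2 expression per probe set, made by the authors with RMA in Affymetrix Expression Console, as the submitters' processing notes name these tools. RMA corrects background, normalizes across arrays and summarises probes. The sources used here give no versions and no genome build. RNA (50 ng) was labelled as sense-strand DNA, per the labels' protocols. Of 35556 probe sets, 21789 had 1 gene symbol in the platform annotation, 1621 several and 12146 none. Those with 1 symbol were used, 21698 of them matched to RefSeq (GRCm38.p6) by gene ID, and 91 kept their name. For 999 genes with several probe sets the one with the highest mean was kept, which left 19938 genes.

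Group means of the 4 groups were fitted to the deposited log2 values by limma (version 3.58.1, under R version 4.3.3), followed by contrasts and moderated variances. Tests were two-sided, with Benjamini-Hochberg adjustment over all genes. The fit was tested on simulated data. The number of arrays limits the precision. The median of an array was 8.78 to 8.85, and pairs of arrays correlated at 0.9798 to 0.9954.

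The P450 members, gene lists, tests and alternatives were chosen with earlier results of these data known. Values on every array are given for Cyp2f2, Cyp2e1 and up to 8 members per comparison with the largest change among those that passed, or the 3 with the smallest p where none did. Further members that passed were added after their values were seen. Up to 3 genes per list were named among the largest changes that passed, or the 1 with the smallest p, and further list genes were chosen after their values were seen. The lists, 7 of pathways and 20 of cell types or tissues, were written from textbook knowledge, and some genes stand on 2 lists (Aldh1a7 on the club cell and enzyme lists). The results were recomputed with quantile-normalized or median-shifted arrays, with the dimmest genes filtered out (25th or 50th percentile), with robust trended variances, with weighted arrays, on the 2 groups of a comparison alone, on means over probe sets, with replicate number as a block and with arrays left out. Replicate numbers are not known to pair the arrays. Deviations of same-numbered arrays from their group means correlated between -0.28 and 0.33. Arrays with different numbers were not compared in this way, so these values cannot decide whether the arrays were paired.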

Additional observations from a re-analysis of the deposited data

Results flagged for a closer look

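The HDM change of Cyp2e1 differed between the genotypes, with an interaction of -1.23 (log2, limma adjusted p = 0.0184), with a change of 0.24 in WT and -0.99 in KO mice. That of Cyp2e1 did not pass with WT saline 2 and 3 both left out (limma adjusted p = 0.0697). For Cyp4f15 the interaction was -0.72 (adjusted p = 0.0367), with a rise in WT and a fall in KO mice. With 1 array left out, the Cyp4f15 interaction did not pass in 12 of 16 fits. Its rise in WT mice did not pass in 5 of 8 and its fall in KO mice in 7 of 8.

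Of 80 groups of 4 arrays checked (19 members and Vldlr in 4 groups), 3 held an array far from the other 3 of its group, where chance gives about 1 in 20. Cyp1b1 on WT HDM 2 was at 9.35, above the next array at 9.17. Cyp2c37 on KO HDM 2 was at 7.88, below the next at 8.16. Cyp2e1 on KO saline 4 was at 10.43, above the next at 9.86, and without that array its change with HDM in KO mice was -0.84.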

How the results depend on the processing

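No P450 change that passed reversed its sign under an alternative that was run. Of those that did not pass, the Cyp2e1 difference under saline ran from -0.053 to 0.22, the Cyp2f2 difference under saline from -0.029 to 0.0083 and the Cyp2f2 change in WT mice from -0.079 to 0.00098. Of 801 values of single genes under alternatives, covering 46 results, 661 kept their side of the threshold, 138 no longer passed and 2 newly passed. In WT mice the count of 10 P450 genes was 4 after quantile normalization, 3 with the filter at the 50th percentile, which tests fewer genes, and 2 without WT saline 2 and 3 together. Under HDM between genotypes the count of 14 was 5 with only the groups compared in the fit, a setting that gives no interaction. For the interaction the count of 2 was 1 with the filter at the 50th percentile, 7 with array weights and 0 without WT saline 2 and 3. The cause of the differences from quantile normalization and array weights was not tested. Leaving out 1 array gave 3 to 11 genes in WT mice, 8 to 15 in KO mice, 0 under saline, 8 to 15 under HDM and 1 to 10 for the interaction. The Vldlr difference lay between -0.79 and -0.71 under saline and between -1.03 and -0.81 under HDM when 1 array was left out, and without WT saline 2 and 3 it was -0.81 under saline and did not pass. With the replicate number as a block the counts were 11 in WT mice, 13 in KO mice, 0 under saline, 14 under HDM and 2 for the interaction, and 2 calls of single genes ended. The median change of all genes with HDM in WT mice, -0.051 as deposited, was -0.016 after quantile normalization. It was -0.041 with arrays shifted to the same median.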

Other observations

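Among 11 genes of heme synthesis and breakdown, Alad, the second enzyme of heme synthesis, fell in both genotypes with HDM (-0.52 in WT, limma adjusted p = 0.00735, and -0.39 in KO, adjusted p = 0.0474). Hmox1, the heme-degrading enzyme, fell by 0.63 in WT mice (adjusted p = 0.0436), and its change of 0.57 in KO mice did not pass (adjusted p = 0.0987). Fech, which inserts iron into heme, was lower in KO than in WT mice under HDM by a difference of -0.45 (adjusted p = 0.00801).

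Of the remaining tissue lists with HDM in KO mice, goblet cell markers rose in 3 of 6 cases, smooth muscle in 3 of 5, mast cell in 2 of 6, fibroblast in 3 of 6 with 2 lower, and endothelial and alveolar macrophage markers in 1 each with 1 lower each. Liver, T cell, adipose and squamous markers each fell in 1 case and rose in none, and 1 adrenal or gonad marker rose. By limma B cell and cardiac markers had 0 changes (0 and 3 at an unadjusted p under 0.05). The shares of all genes in this comparison were 4.96% higher and 3.88% lower.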
